A study of Mus musculus with 4 samples.

Results

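The LIM-only and LIM-homeodomain factors with their LDB and SSBP cofactors were followed on 4 Affymetrix mouse arrays. The group holds 10 genes, namely the LIM-only genes Lmo1, Lmo2 and Lmo4, the cofactor genes Ldb1, Ldb2, Ssbp2 and Ssbp3, and the LIM-homeodomain genes Lhx8, Lhx9 and Isl1. Every probe set with one of these as its single gene symbol was taken, which gave 20 of the 45037 probe sets tested and 10 of the 18193 genes with a symbol of their own. A probe set is the group of short oligonucleotides that reads 1 transcript, and the one with the highest mean over the arrays leads for its gene. The genes were selected on measured values of these arrays, among them the difference of Lhx8 between the cell clones, so the values of the members are given as a description.

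The arrays hold RNA of immortalised mouse mammary epithelial cells (MECs) that lack Deaf-1. The cells carry the E6/E7 proteins of human papilloma virus HPV16 as immortalising genes, and clones C1 and E1 were each transduced either with an empty retrovirus (control) or with one encoding Deaf-1, then kept in puromycin for 48 h. Each clone with each retrovirus was hybridised to 1 array, so that the Deaf-1 and control groups hold 2 arrays each, 1 from either clone. All 4 arrays therefore share the Deaf-1 deletion and the viral proteins, Deaf-1 was restored by a retrovirus only in the Deaf-1 group, and each clone stands for 1 selected cell line. By the study's methods the glands came from female Deaf-1-/- mice 8 weeks old, whereas its results name 1 Deaf-1-/- mouse as the source. The clones may thus stem from 1 animal, and they do not stand for separate mice.

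LIM domains are zinc-binding modules through which proteins hold on to other proteins. LIM-homeodomain factors join a pair of LIM domains to a DNA-binding homeodomain, whereas LIM-only factors such as Lmo4 carry LIM domains alone and act as adaptors. The LDB proteins bind these LIM domains and also bind each other, so that they bridge factors sitting on separate stretches of DNA, and a LIM-only factor can compete with a LIM-homeodomain factor for the same LDB molecule. SSBP proteins bind LDB and protect it from degradation by the proteasome. Deaf-1, a DNA-binding protein, interacts with Lmo4 and with LDB proteins, and Lmo4 is required in the mammary gland for the growth of alveoli in pregnancy. The comparison of retroviruses asks which genes respond to Deaf-1, and here it asks whether the partners of Deaf-1 were among them.

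The values deposited by the authors are log2 expression values made with RMA, and background was set at 3.83, the level under which 95% of 44 olfactory receptor probe sets lay on average. A difference of 1 on this scale is a doubling. Levels of separate probe sets are not compared with each other, because oligonucleotides differ in how strongly they bind. Over all probe sets the arrays of C1 correlated at 0.994 and those of E1 at 0.992, against 0.982 between clones in the control group and 0.976 in the Deaf-1 group. Several defining markers of mammary epithelium were at or near background. Krt18 lay between 2.75 and 3.51, Cdh1 between 2.22 and 2.42, Krt14 between 3.37 and 3.72 and Krt8 between 3.46 and 4.01. Between 4 and 6 of 9 measured luminal markers were above background on an array, and their summed level, as a log2 value, was 7.58 to 7.94. Epcam (5.81 to 6.33), Cldn3 (5.19 to 5.88), Krt19 (4.37 to 4.64) and Esr1 were the luminal markers above background on every array. Of 7 myoepithelial and basal markers 3 or 4 were above it, among them Krt5 (4.45 to 4.74) and Acta2 (11.46 to 11.83), the smooth muscle actin that mesenchymal cells also make, and their summed level was 11.5 to 11.9. All 9 fibroblast and mesenchyme markers were above background on every array, with Col1a1 at 12.49 to 12.83 and a summed level of 15.2 to 15.4. The label of epithelial cells is thus not borne out by Krt8, Krt18, Cdh1 and Krt14, and the part of cell type in the values below was not tested.

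Deaf1, the transduced gene, checks the labels. Its probe set 1448446_at read 5.01 in control C1, 6.73 in Deaf-1 C1, 4.91 in control E1 and 6.25 in Deaf-1 E1. Both Deaf-1 arrays lay above both control arrays, and Deaf1 rose by 1.53 on the log2 scale (SE 0.215), past the unadjusted threshold of 0.01 and not the adjusted one (limma adjusted p = 1), with the highest moderated t of all probe sets. The control arrays were above the background level although these cells lack Deaf-1, so the lower values cannot be read as expression of an intact gene.

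The members were sorted by the background level, and passing it does not by itself show expression. Of 5 measured haematopoietic markers 3 also passed it on every array and 2 on none, with Cd3e, a T-cell marker, at 4.32 to 4.71. Lmo2 (4.20 to 4.60) and Lhx9 (4.64 to 5.11) lay in this low range. The leading probe sets of Lmo2, Lmo4, Ldb1, Ssbp2, Ssbp3 and Lhx9 were above background on all 4 arrays, those of Lmo1, Ldb2 and Isl1 on none, and that of Lhx8 in the C1 arrays only. Over all 20 probe sets, 7 were above background on every array, 10 on none and 3 on some. Of all 45037 probe sets, 20583 were above it on every array and 20607 on none. By leading probe sets, 11005 of all 18193 genes were above it on every array and 5668 on none. Transcripts of the adaptor Lmo4, the bridging protein Ldb1 and the stabilisers Ssbp2 and Ssbp3 were thus read above background in both clones. Proteins and complexes were not measured. The second LDB gene, Ldb2, was below background on each of its 3 probe sets.

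**Figure D1:**
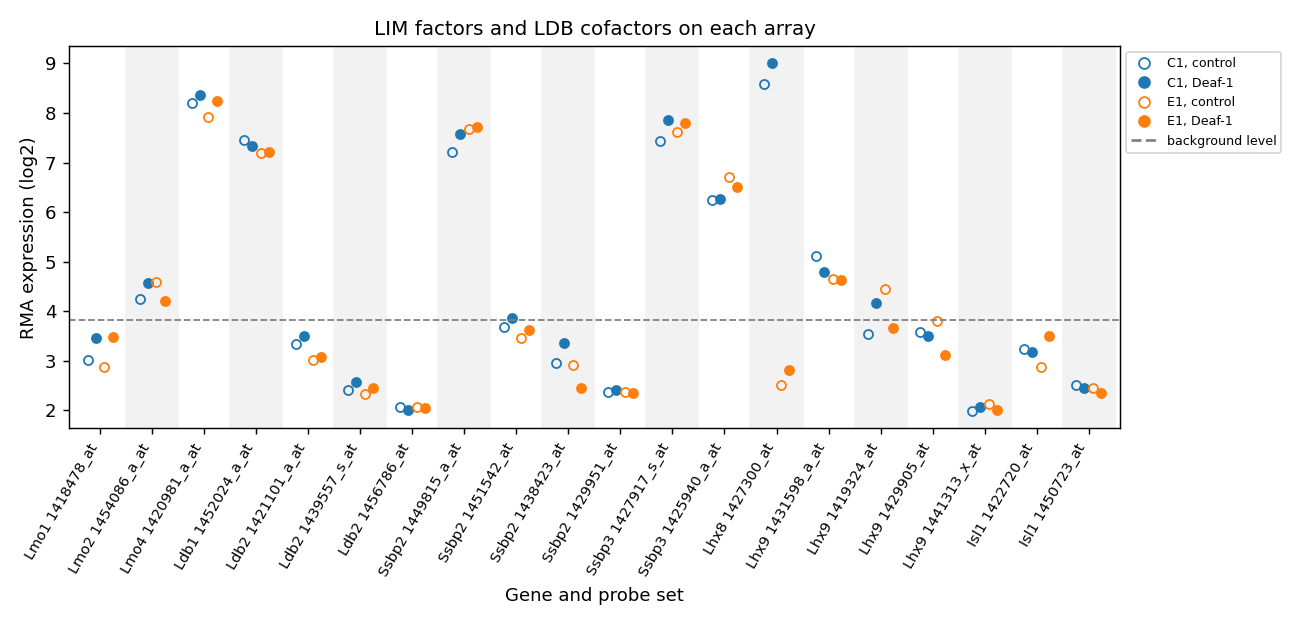
RMA values (log2) for the 20 probe sets of the 10 genes, with 1 point per array, open for control and filled for Deaf-1, blue for clone C1 and orange for clone E1. The dashed line is the background level of 3.83, and Lhx8 is split by clone, with C1 at 8.59 and 9.00 and E1 at 2.52 and 2.82.

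To show the DNA that lies before the start of a member present on all arrays and of the member that differed most between the clones, the 250 bases before a transcription start of Lmo4 and of Lhx8 are given, 5′ to 3′ on the coding strand. They are RefSeq sequences of GRCm38.p6, at chr3:144205256-144205505 on the minus strand for Lmo4, the most upstream of its 3 starts, and at chr3:154330561-154330810 on the minus strand for Lhx8. CG dinucleotides, the sites of DNA methylation and the core of the TTCG motif that Deaf-1 proteins bind, are in capitals.
Lmo4: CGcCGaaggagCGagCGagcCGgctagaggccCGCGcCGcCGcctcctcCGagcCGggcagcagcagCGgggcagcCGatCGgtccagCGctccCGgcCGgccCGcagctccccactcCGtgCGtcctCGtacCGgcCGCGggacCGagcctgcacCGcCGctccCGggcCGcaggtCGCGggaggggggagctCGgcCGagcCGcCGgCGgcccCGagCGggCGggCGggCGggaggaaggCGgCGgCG
Lhx8: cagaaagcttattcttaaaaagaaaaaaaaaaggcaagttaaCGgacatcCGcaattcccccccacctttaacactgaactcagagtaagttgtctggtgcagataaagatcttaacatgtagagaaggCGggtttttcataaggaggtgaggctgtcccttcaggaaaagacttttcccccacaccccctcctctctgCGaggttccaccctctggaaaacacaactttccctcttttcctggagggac
The Lmo4 window held 44 CG dinucleotides, and 99.5% of 32851 windows of this length held fewer. It was the richest in CG of the Lmo4 windows, as those of the other Lmo4 starts held 29 and 25, with 93.2% and 89.3% of windows holding fewer. The Lhx8 window held 4, and 37.8% of windows held fewer, against a median of 6. TTCG was searched on both strands, so that CGAA on the printed strand counts as well. It occurred 1 time in the printed Lmo4 window, as CGAA near the 5′ end, and 0 times in the Lhx8 window. In the windows of the other Lmo4 starts it occurred 0 and 2 times. Of the 14 windows listed for 8 of the members, 5 held the motif, in Lmo4, Ldb1 and Ssbp2, and 38.7% of all windows did. A match is no evidence of binding, and methylation was not measured.

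Among the LIM-only factors, Lmo4 was present in both clones. Its single probe set, 1420981_a_at, read 8.20 in control C1, 8.37 in Deaf-1 C1, 7.92 in control E1 and 8.25 in Deaf-1 E1. The Deaf-1 array was the higher one in each clone, and the lower Deaf-1 array, that of E1, lay just above the higher control array, that of C1. The group means were 8.06 ± 0.20 for control and 8.31 ± 0.085 for Deaf-1 (SD, n = 2 arrays each). The difference was 0.25 on the log2 scale (SE 0.173, 95% interval -0.21 to 0.71), a 1.19-fold ratio with an interval of 0.865 to 1.63. It did not pass the test, with a moderated t of 1.44 (limma adjusted p = 1). Lmo4 was 0.20 lower in E1 than in C1 on average, a gap of the same order as the difference between retroviruses.

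Lmo1 and Lmo2 are adaptors known as oncogenes of T-cell leukaemia. Lmo1 read 3.01 in control C1, 3.46 in Deaf-1 C1, 2.87 in control E1 and 3.47 in Deaf-1 E1. Both Deaf-1 arrays were above both control arrays, yet all 4 stayed under the background level. The difference was 0.53 (SE 0.148, moderated t 3.57, limma adjusted p = 1), which missed the unadjusted threshold of 0.01 and stood at rank 13 of all probe sets by moderated t. Lmo2, which links Tal1 and Gata factors to Ldb1 in blood cells, read 4.26 in control C1, 4.57 in Deaf-1 C1, 4.60 in control E1 and 4.20 in Deaf-1 E1. The groups overlapped, and the Deaf-1 array was the higher one in C1 and the lower one in E1.

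The genes of the bridging proteins differed in whether they passed the background level rather than by retrovirus. Ldb1, the LDB protein found in most tissues, read 7.45 in control C1, 7.34 in Deaf-1 C1, 7.19 in control E1 and 7.21 in Deaf-1 E1. The retroviruses overlapped, with a difference of -0.04 (95% interval -0.49 to 0.41), while both C1 arrays lay above both E1 arrays. The leading probe set of Ldb2 read 3.33 and 3.50 in C1 and 3.01 and 3.08 in E1, control first. Its other probe sets, 1439557_s_at and 1456786_at, ran from 2.33 to 2.56 and from 2.00 to 2.07, all under background.

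Both SSBP genes had a probe set well above background. Ssbp2 1449815_a_at read 7.21 in control C1, 7.58 in Deaf-1 C1, 7.67 in control E1 and 7.71 in Deaf-1 E1. The E1 arrays were both above the C1 arrays, and the Deaf-1 array was higher in either clone, with a difference of 0.20 (95% interval -0.36 to 0.76). Its other 3 probe sets lay between 2.36 and 3.87. They were not of one direction. On 1451542_at Deaf-1 minus control was 0.192 in C1 and 0.169 in E1, whereas 1438423_at was 0.401 higher with Deaf-1 in C1 and 0.465 lower in E1.

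Ssbp3 1427917_s_at read 7.44 in control C1, 7.85 in Deaf-1 C1, 7.62 in control E1 and 7.79 in Deaf-1 E1. Both Deaf-1 arrays exceeded both control arrays, with a difference of 0.29 (SE 0.154, 95% interval -0.12 to 0.70, limma adjusted p = 1) that did not pass the test. The probe sets of Ssbp3 disagreed. The second, 1425940_a_at, read 6.25 and 6.26 in C1 and 6.71 and 6.51 in E1, control first, so that it showed 0.00886 in C1 and -0.198 in E1 for Deaf-1 minus control. Both C1 arrays lay under both E1 arrays on 1425940_a_at and not on 1427917_s_at, and which transcripts the probe sets read was not examined.

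The LIM-homeodomain members gave the widest range. Lhx8, known for cholinergic neurons of the forebrain and for oocytes, read 8.59 in control C1 and 9.00 in Deaf-1 C1, against 2.52 in control E1 and 2.82 in Deaf-1 E1. Both C1 arrays lay far above background and both E1 arrays under it, with either retrovirus. The clone means were 8.79 ± 0.294 in C1 and 2.67 ± 0.212 in E1 (SD, n = 2 arrays each), so that E1 minus C1 was -6.12, at -6.07 in the control arrays and -6.18 in the Deaf-1 arrays. As E1 was under the background level, the level of Lhx8 was at least 31.3-fold higher in C1 against that level. Fewer cells with the transcript and less of it per cell cannot be told apart in such RNA. These values were among those by which the gene was chosen, and they come from 1 selected line per clone.

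**Figure D2:**
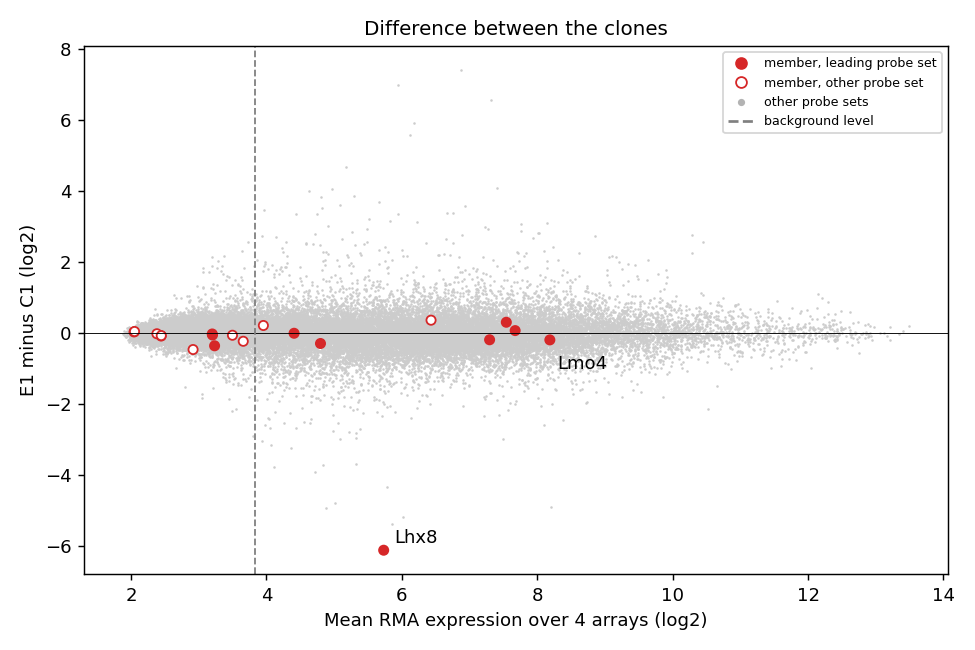
Difference between the clones, E1 minus C1 (log2, vertical axis), against the mean RMA expression over the 4 arrays (log2, horizontal axis). Grey points are all probe sets, red points the members, filled where the probe set leads for its gene, and Lhx8 lies at -6.12, with its E1 values under background, whereas the other members lie between -0.47 and 0.35.

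Within each clone Lhx8 was higher in the Deaf-1 array, by 0.416 in C1 and by 0.299 in E1, the second among values under background. The mean difference was 0.36, and its interval without clone in the model ran from -7.24 to 7.96, because the clone difference enters the spread. With clone as a block its moderated t was 2.46 (limma adjusted p = 1), which missed the threshold too.

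Lhx9, a factor needed for the gonads, was above background on all arrays by its leading probe set alone. That probe set, 1431598_a_at, read 5.11 in control C1, 4.78 in Deaf-1 C1, 4.65 in control E1 and 4.64 in Deaf-1 E1. The C1 arrays were both above the E1 arrays, and Deaf-1 minus control was -0.17 (95% interval -0.73 to 0.39). Its other probe sets disagreed with one another. On 1419324_at the Deaf-1 array was 0.618 higher in C1 and 0.804 lower in E1, around the background level, and on 1429905_at the mean difference was -0.39 among values under background.

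Isl1, a factor of motor neurons, pancreatic islets and heart progenitors, was not detected. Its leading probe set read 3.24 in control C1, 3.19 in Deaf-1 C1, 2.87 in control E1 and 3.49 in Deaf-1 E1, and its second probe set ran from 2.35 to 2.52. The Deaf-1 array of E1 was the highest of the 4 and its control the lowest, all under background.

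Across the members, no probe set passed the threshold of an unadjusted p under 0.01 for Deaf-1 against control, where 5 of all 45037 did (0.0111%). At an unadjusted p under 0.05, 1 member, Lmo1, was among the 195 probe sets that passed (0.433%), and it no longer passed when any 1 of the 4 arrays was left out. At an adjusted p under 0.05, 0 members and 0 probe sets in all passed (0.0%). The Deaf-1 arrays lay on one side of both control arrays for 7 of the 20 member probe sets, above for 4 and below for 3, against 18.9% of all probe sets. The change had the same sign in both clones for 12, 8 of them higher with Deaf-1 and 4 lower, against 39.3% of all probe sets. The median difference over the 20 member probe sets was 0.0045, and over all probe sets it was -0.0043. Over the 10 leading probe sets the median was 0.22, against -0.0068 over those of all genes. Lmo1 (0.53), Isl1 (0.28) and Ldb2 (0.12) were under background on all arrays, and Lhx8 (0.36) was under it in E1. The 6 above background on every array ran from -0.17 for Lhx9 to 0.29 for Ssbp3. Lmo1, Lmo2, Lmo4, Ldb1 and Lhx8 have no other probe set. Among the other probe sets of the remaining genes, Ssbp2 1451542_at (0.18) and Ldb2 1439557_s_at (0.14) were also higher with Deaf-1 in both clones. The rest of them ran from -0.39 to 0.019, and of all these only Ssbp3 1425940_a_at was above background on every array. The groups are small, at 2 arrays each. An exact two-sided permutation of 2 against 2 arrays, which was not run, cannot go below p = 0.333. The limma p-values have no such floor.

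**Figure D3:**
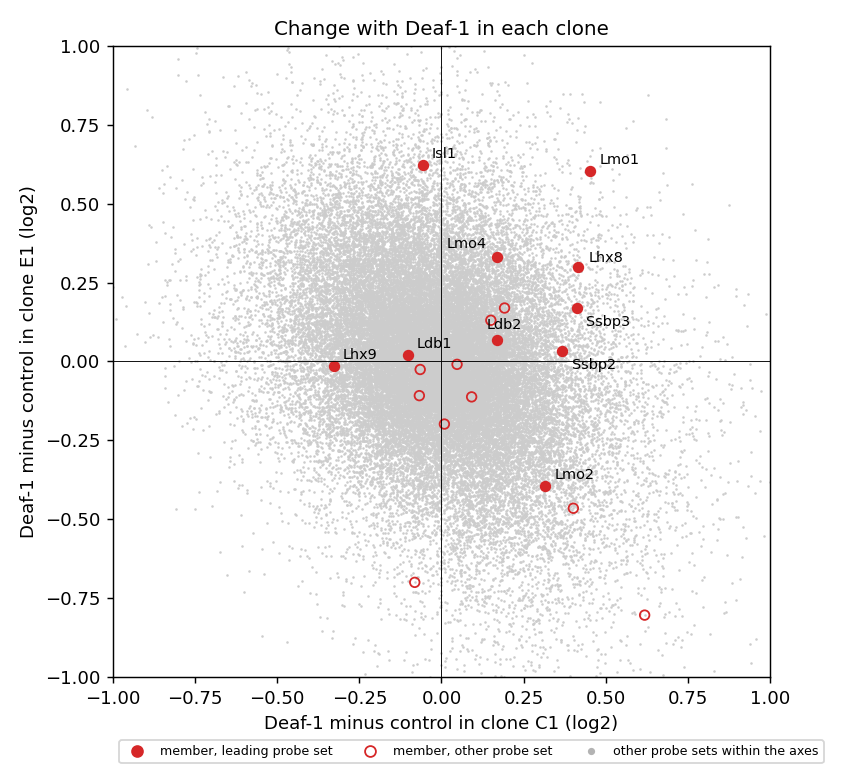
Change with Deaf-1 (log2) in C1, horizontal axis, against that in E1, vertical axis. Shown are all probe sets within the axes (grey), the leading probe sets of the members (filled red, named) and their other probe sets (open red). Lmo1, Lmo4, Ssbp2, Ssbp3, Ldb2 and Lhx8 are above 0 on both axes, Lhx9 is below 0 on both, and Lmo2, Ldb1 and Isl1 have opposite signs in the clones.

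Between the clones, both E1 arrays lay outside both C1 arrays for 8 of the 20 member probe sets, with C1 higher for 6 and E1 higher for 2. The share over all probe sets was 47.1%. With retrovirus as a term in the model, 49 probe sets had an adjusted limma p under 0.05 (0.109%), and Lhx8 was the 1 member among them. The members were chosen with these values in view, and nothing is read from the count. The other 19 probe sets ranged from -0.47 to 0.35 for E1 minus C1. On the same arrays the probe sets of Lmo4, Ldb1, Ssbp2 and Ssbp3 that were above background differed by -0.20 to 0.35 between the clones.

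The remaining genes of the family were read by their leading probe sets. All 12 LIM-homeodomain genes were measured, 4 were above background on every array and 4 on none, against 11005 and 5668 of all 18193 genes. Lhx2, Lhx6 and Isl2, named here after their values were seen, were above background on every array beside Lhx9. Lhx2, a factor of the eye and the hair follicle, read 6.48 in control C1, 6.99 in Deaf-1 C1, 7.17 in control E1 and 6.75 in Deaf-1 E1. Lhx6, a factor of forebrain interneurons and jaw mesenchyme, read 4.74 and 4.91 in C1 and 3.98 and 4.14 in E1, control first. It was the LIM-homeodomain gene with the next largest clone difference after Lhx8, at -0.77, again lower in E1. For Deaf-1 against control 0 of the 12 reached an unadjusted p under 0.05, 4 had higher and 3 lower values in both clones, and the median difference was 0.19. Over all genes 74 of 18193 reached that p, 37.8% had the same sign in both clones, and the median was -0.0068. The 4 LIM-homeodomain genes above background on every array differed by 0.048 (Lhx2), 0.17 (Lhx6), 0.064 (Isl2) and -0.17 (Lhx9). Of the 12, Lhx3, a pituitary factor, had the largest moderated t at a difference of 0.41, with 1 of 4 arrays above background. Of the LIM-only genes Lmo3 was under background at 2.56 to 2.85. Ssbp4, the remaining SSBP gene measured, was present at 7.06 to 7.34 with overlapping groups.

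**Figure D4:**
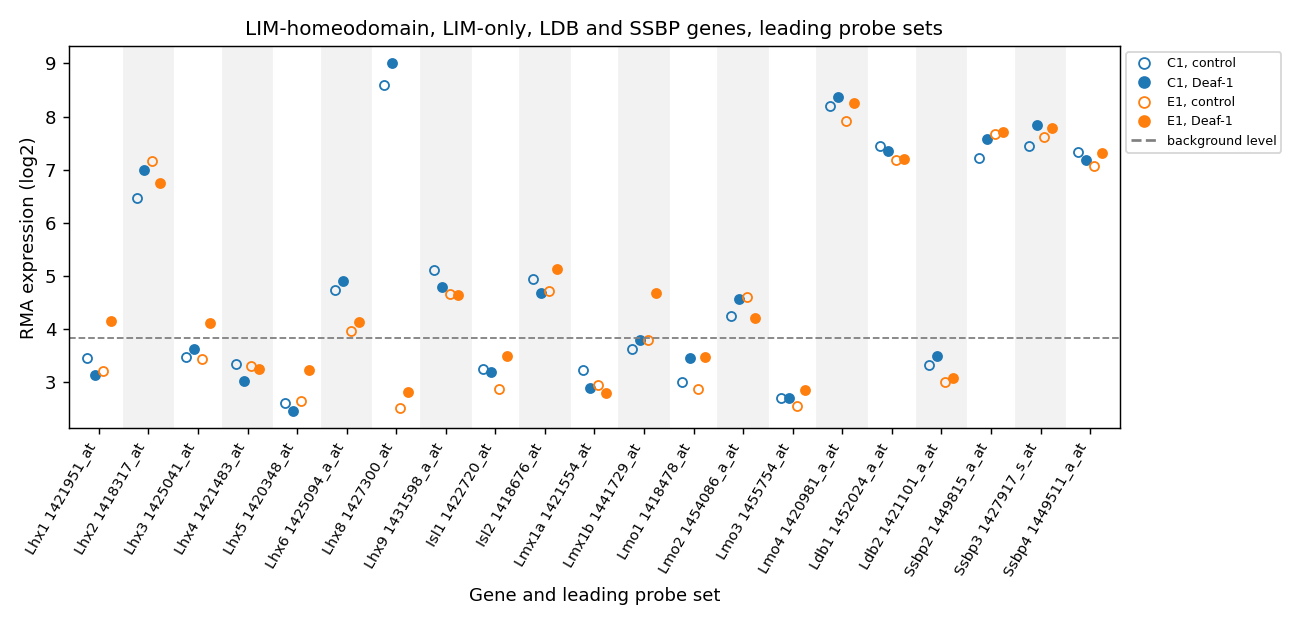
RMA expression (log2) of the leading probe sets of the LIM-homeodomain, LIM-only, LDB and SSBP genes, with 1 point per array, open for control and filled for Deaf-1, blue for clone C1 and orange for clone E1. The dashed line marks background, 3.83. Lhx8 and, less so, Lhx6 are higher in C1, while Lmo4, Ldb1, Ssbp2, Ssbp3 and Ssbp4 stay above 7 on all arrays.

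Transcripts of proteins that sit with LDB complexes were also measured. Of 11 such partners 7 were above background on all arrays, and 0 reached an unadjusted p under 0.05 for Deaf-1 against control. Over all 18193 genes 11005 were above background on all arrays and 74 reached that p. The median size of the clone difference was 0.244, against 0.189 over all genes. The largest were -0.46 for Tcf3, an E protein that pairs with Tal1, -0.44 for Gata2 and 0.39 for Rlim, the ubiquitin ligase that marks LDB proteins for degradation. All 6 measured partners of Lmo4, Deaf1 included, read above background on all arrays, and Deaf1 was the 1 that passed at 0.01. Esr1, the oestrogen receptor gene, read 5.55 and 5.74 in C1 and 4.77 and 4.42 in E1, control first, a clone difference of -1.05.

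LIM domains also occur in cytoskeletal and adhesion proteins that do not use LDB, and 30 such genes were measured. Of these 26 were above background on all arrays, 0 reached an unadjusted p under 0.05 for Deaf-1 against control, and the median difference was 0.0091. The counts over all 18193 genes were 11005 above background on all arrays and 74 at that p. Between the clones 4 differed by 1 or more. Crip2 (-2.00), Fhl1 (-1.90) and Csrp2 (-1.68) were lower in E1, and Fhl2 (1.60) was higher in E1. Both C1 arrays were above both E1 arrays for 10 of the 30, and both E1 arrays above for 13. Over all genes the clone arrays did not overlap for 51.8%, and 3.4% differed by 1 or more. For all genes with a leading probe set the median size of the clone difference was 0.189, and for these 30 it was 0.383. Among the members only Lhx8 reached a clone difference of 1.

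The genes beside Lhx8 on its chromosome were read to see whether the clone difference extended to them. They are the 5 genes on each side in RefSeq on GRCm38.p6, and they were taken up after the Lhx8 values were seen. Of these 10 genes 9 had a probe set, 13 in all, and none had the pattern of Lhx8. E1 minus C1 ran from -0.39 for Acadm, an enzyme of fatty acid oxidation, to 0.60 for Tnni3k, a kinase of heart muscle whose values were under background. Acadm read 8.45 and 8.62 in C1 and 8.23 and 8.06 in E1, and Rabggtb, a subunit of the enzyme that attaches lipid to Rab proteins, read 8.27 and 8.27 in C1 and 7.99 and 7.88 in E1. On the other side Cryz, a quinone reductase, read 7.10 and 7.08 in C1 and 7.49 and 7.39 in E1 by its leading probe set. Acadm, Rabggtb, Cryz and Fpgt were above background on all 4 arrays. Tyw3, the nearest neighbour measured, lay around the background level, at 3.84 and 3.98 in C1 and 4.02 and 3.72 in E1. Slc44a5, the gene next to Lhx8 on one side, had no probe set under that symbol.

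**Figure D5:**
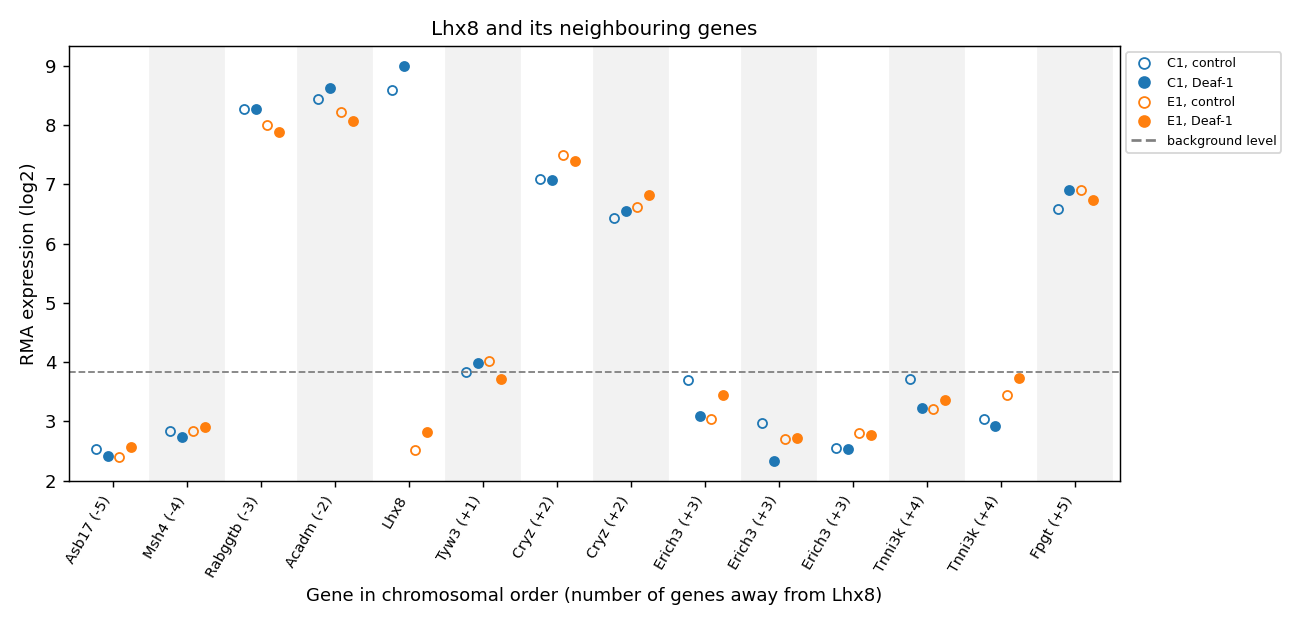
RMA expression (log2) of Lhx8 and of the probe sets of its 5 neighbouring genes on each side, in chromosomal order with the number of genes away in brackets, 1 point per array, open for control and filled for Deaf-1, blue for C1 and orange for E1. Lhx8 alone is far above the background level of 3.83 (dashed) in C1 and under it in E1, and the neighbours differ between clones by -0.39 to 0.60.

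Some adipocyte markers differed between the clones opposite to Lhx8. On each C1 array 2 of 5 measured adipocyte markers were above background and on each E1 array 4, while their summed level was 12.7 to 12.8 in C1 and 12.8 to 12.9 in E1. Fabp4, the fatty acid binding protein of adipocytes, read 2.57 and 3.77 in C1 and 10.6 and 10.6 in E1 by its leading probe set, and Pparg, the receptor that drives adipocyte differentiation, 3.16 and 2.95 in C1 and 6.62 and 6.53 in E1. Lpl, a lipase of adipocytes and other cells, was higher in both C1 arrays, at 12.7 and 12.7 against 12.5 and 12.4 in E1. Adipoq, a marker of mature adipocytes, was under background on all arrays, at 2.25 to 2.40. Of 5 neuronal markers Tubb3 and Rbfox3 were above background on all arrays and Map2, Snap25 and Syt1 on none, and the summed level was 6.55 to 7.04, and 0 of the 5 had both C1 arrays above both E1 arrays. The part of any such difference between the lines in the Lhx8 values was not tested.

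Genes with a pattern like that of Lmo4 were sought over the 4 arrays among 12016 probe sets above background that varied at least as much. The nearest were 4930481B07Rik (Pearson r = 0.999), Bcat1, a branched-chain amino acid transaminase (0.998), Sf3a1, a splicing factor (0.998), Polb, a DNA repair polymerase (0.997), and Mapk7, a kinase also called ERK5 (0.997). Over 4 points that share their arrays, 17 candidates exceeded 0.99, so the order among them describes these arrays only. For Lhx8 the same rule left 2 candidates, and the gene nearest to it, Fabp4, ran the other way (r = -0.986). Lhx8 had the lowest E1 minus C1 of all probe sets, so the rule could hardly keep a gene of like direction. Car6 (-5.39), Vit (-5.19) and Zfpm2 (-4.94), named here after their values were seen, came next by E1 minus C1. Each was above background in both C1 arrays and under it in both E1 arrays.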

How the data were processed

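RNA of 4 cultures was measured on 1 Affymetrix mouse expression array each. The values deposited by the authors are log2 expression values made with RMA. It subtracts background, gives all arrays the same distribution and summarises each probe set, so that differences of low signals are compressed. The submitters' processing notes name RMA and limma without versions. Arrays were grouped by retrovirus from their titles, whose first letter was read as clone C1 or E1. Of 45101 probe sets 64 control probe sets were left out, and none was filtered on signal. Gene symbols came from the platform annotation (34945 probe sets with 1 symbol, 932 with several, 9160 with none), and all 20 member probe sets matched a RefSeq gene of the same symbol. The array number limits the precision, and no read depth applies.

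The retroviruses were compared in limma 3.58.1 (lmFit and eBayes, R 4.3.3), with clones as replicates as the study describes. Tests were two-sided, and p-values were adjusted by Benjamini-Hochberg over 45037 probe sets. The unadjusted threshold of 0.01 is also the study's. For Deaf1 the study lists the same log2 difference with a larger t statistic, so its fit was not identical to this one. The fit had 2 residual and 2.56 prior degrees of freedom. E1 was compared with C1 with retrovirus as a term. Clone as a replicate block was an alternative. Arrays read as the same clone deviated together (correlation of deviations from the group means 0.54 in C1, and by construction the same in E1). The pairing of arrays by clone rests on the first letter of their titles. The p-values for Deaf-1 against control measure the spread between these selected clones only. Those for E1 against C1 rest on 1 residual degree of freedom per probe set, with 2 arrays of 1 line per clone. They measure no spread between lines. The script was tested on simulated data before use.

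The members and all gene lists were chosen with earlier results of these data known. Genes named are all members, Deaf1, up to 4 genes of each list with the largest clone difference or moderated t, the 5 probe sets most like Lmo4, and those marked in the text as named after their values were seen. Marker genes are named to check the tissue label. Promoter windows are the 250 bases before a start in RefSeq, GRCm38.p6, and the array values use no genome build. Alternatives were the block, leaving out each array, median centring, a further quantile normalization, cyclic loess, a filter at the background level (22403 probe sets), a trended or robust prior and leaving out probe sets named _x_at or _s_at.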

Additional observations from a re-analysis of the deposited data

Results flagged for a closer look

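For 8 of the 20 member probe sets Deaf-1 minus control (log2) had opposite signs in clones C1 and E1. With 1 array per clone and retrovirus the difference between the clones was not tested. Above background on all arrays were Lmo2 1454086_a_at, at 0.316 in C1 and -0.396 in E1, Ldb1 1452024_a_at, at -0.103 and 0.0199, and Ssbp3 1425940_a_at, at 0.00886 and -0.198. Around background was Lhx9 1419324_at, at 0.618 in C1 and -0.804 in E1. Under background were Ssbp2 1438423_at, at 0.401 in C1 and -0.465 in E1, Isl1 1422720_at, at -0.0571 and 0.622, Lhx9 1441313_x_at, at 0.0918 and -0.112, and Ssbp2 1429951_at, at 0.0474 and -0.00914.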

How the results depend on the processing

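The Lmo4 difference kept its direction and its side of the threshold under every alternative run. The count of members stayed at 0 for Deaf-1 at an unadjusted p under 0.01 and at 1 between the clones at an adjusted p under 0.05. Lmo4 ran from 0.11 to 0.39 with 1 array left out. With clone as a replicate block its difference was the same 0.25, at a moderated t of 1.69 (limma adjusted p = 1), and the block changed no call of a member. Of the leading probe sets of the other members, 10 of 36 differences changed sign when 1 array was left out. These fits had no clone term, so with 1 array removed a gap between the clones enters the difference. The range of Lhx8 thus holds part of its clone gap of -6.12, whereas Deaf-1 minus control was 0.416 in C1 and 0.299 in E1. For the other members the cause of the sign changes was not tested. The ranges were -0.17 to 0.088 for Ldb1, -0.089 to 0.33 for Ldb2, -2.73 to 3.45 for Lhx8, -0.40 to 0.058 for Lhx9, -0.23 to 0.15 for Lmo2 and -0.031 to 0.43 for Ssbp2. Lmo1 stayed at 0.46 to 0.60, but its call at an unadjusted p under 0.05 was lost without Deaf-1 C1, without control C1, without Deaf-1 E1 and without control E1, and the background filter removed it. Ssbp3 ranged from 0.20 to 0.38 and Isl1 from 0.095 to 0.47. Over all probe sets, those at an unadjusted p under 0.01 for Deaf-1 numbered 5, against 11 with the block, 25 with a trended prior, 2 with the background filter, and 47 without Deaf-1 C1, 3 without control C1, 15 without Deaf-1 E1 and 2 without control E1. Probe sets with an adjusted p under 0.05 between clones numbered 49, against 2306 without the retrovirus term, 1591 with median centring, 1286 with quantile normalization, 936 with loess, 1696 with a trended prior and 414 with the background filter, and the cause was not tested. In that comparison no test was left with an array removed, and Lmo4 has 1 probe set, so that averaging over its probe sets could not be tried.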
